A study of Mus musculus with 1528 samples.

Results

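*Arg1*-high cells were defined as the single macrophages with at least 100 CPM of *Arg1*, where CPM is fragments per 1000000 fragments counted on genes; the members were thus chosen by their measured *Arg1* level. They made up 151 of the 1439 cells that were kept, and the other 1288 kept cells, with under 100 CPM, served as the comparison. All were macrophages grown from C57BL/6 wild-type bone marrow in M-CSF (BMDMs), and they received for 24 h either IL4+IL13 alone or the same pair together with TNF (IL4+IL13+TNF); the dose of every cytokine was 10 ng/ml. No group was left without cytokines, so every value below is from cells that received IL4 and IL13. The cells came from 2 mice, told apart by the replicate number in the well names, and each of 4 plates held cells of 1 mouse under both treatments (plates 2 and 3 for mouse 1, plates 4 and 5 for mouse 2). Of 1524 wells, 384 per mouse without TNF and 378 per mouse with TNF, 85 were left out because they had under 200000 fragments, under 5000 detected genes or over 10% mitochondrial fragments. The kept wells had from 200235 to 6122892 fragments (median 471020) and at least 5114 detected genes.

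*Arg1* encodes arginase 1, which splits L-arginine into ornithine and urea. Ornithine feeds the synthesis of polyamines and proline, and the enzyme competes for arginine with nitric oxide synthase, so that in macrophages it is used as a hallmark of alternative activation. IL4 and IL13 act through their receptors and STAT6 to induce the gene, and TNF, an inflammatory cytokine, is known to limit some genes of this program. The paper describes this limit as selective, with most genes under IL4 and IL13 left alone by TNF or raised further. For *Arg1* itself, the paper reports less protein with TNF in BMDMs that received IL4 and IL13. It also counts the *Arg1* mRNA among those that TNF targets, with a block that depends on time. That protein was measured as the percentage of positive cells, while the values below are RNA of single cells. The comparison of both treatments within the *Arg1*-high cells and outside them described the difference with TNF in each class, with the classes set after treatment.

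*Arg1* (ENSMUSG00000019987, chr10:24915221-24927484 of mm10, minus strand) was unevenly spread over the cells. It was at 0 in 774 cells (53.8%), between 0 and 100 CPM in 514 cells, and at or above 1000 CPM in 47 cells. The *Arg1*-high cells had from 104.8 to 16247 CPM, a 155-fold range, with a median of 444 CPM, and they carried 97.2% of the *Arg1* CPM summed over all kept cells. Since *Arg1* chose these cells, its levels are a description. Cells were found on both sides of the threshold without a gap. The lowest members had 104.8, 106.1 and 106.5 CPM and the highest cells outside had 97.5, 97.0 and 96.2 CPM, 44 members had under 200 CPM, and 42 other cells had 50 CPM or more. The fewest *Arg1* fragments in a member were 27 (median 200), and 150 of the 151 members stayed at or above the threshold when every cell was thinned to 200000 fragments.

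**Figure D1:**
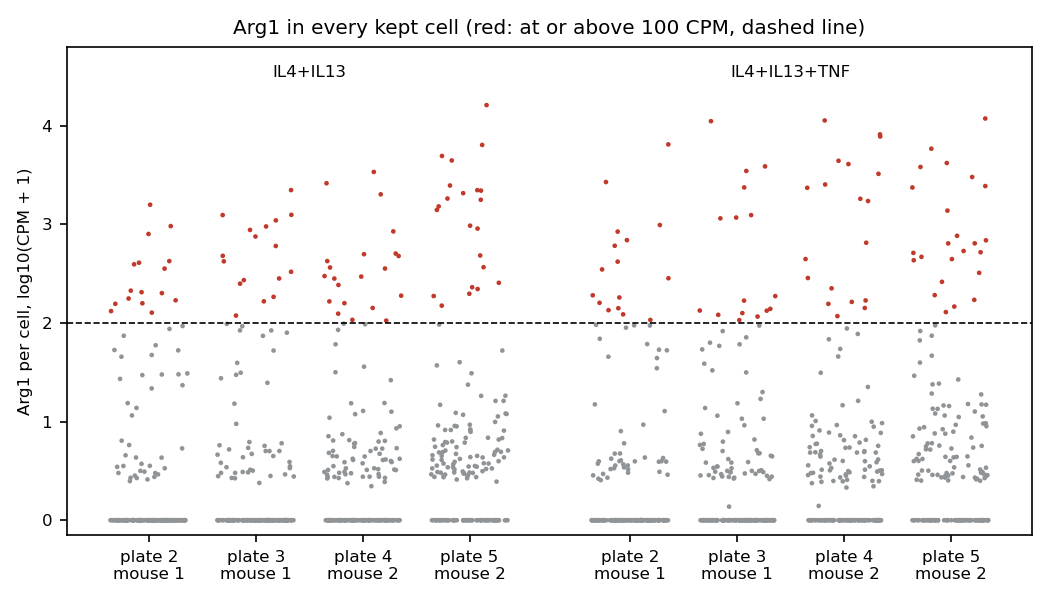
*Arg1* in each of the 1439 kept cells, as log10(CPM + 1), by plate and mouse, with IL4+IL13 alone on the left and IL4+IL13+TNF on the right; points in red lie at or above the dashed line at 100 CPM. Every one of the 8 sets of cells holds between 16 and 24 such cells, above a larger number of cells at 0 or with a few fragments.

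The share of *Arg1*-high cells with and without TNF differed by less than the spread between mice. Without TNF, 33 of 362 cells of mouse 1 (9.12%) and 43 of 359 cells of mouse 2 (11.98%) were *Arg1*-high. With TNF they were 32 of 363 cells of mouse 1 (8.82%) and 43 of 355 cells of mouse 2 (12.1%). Both treatments therefore gave the same order of the mice, and the mean over mice was 10.5% ± 2.02 (SD, n = 2 mice) without TNF and 10.5% ± 2.33 with TNF. The difference was −0.083 percentage points, with −0.301 in mouse 1 and 0.135 in mouse 2 (two-sided exact permutation p = 1; the smallest p that 2 mice against 2 can give is 0.333). Within plates 2 to 5 the difference was 0.149, −0.744, −0.494 and 0.690 percentage points. The pooled shares were 10.5% (95% exact Clopper-Pearson interval 8.40 to 13.02) and 10.4% (8.31 to 12.9). These intervals cover the counting of cells only, since they pool the cells and leave out the spread between mice and plates. Smart-seq2 has no molecular identifiers, so PCR copies are counted among the fragments.

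The mice differed in the cells below the threshold. At least 1 *Arg1* fragment was found in 32.6% of the cells of mouse 1 and 57.4% of those of mouse 2 without TNF, and in 37.7% and 57.5% with TNF (24.3%, 40.1%, 26.7% and 43.1% after thinning). Among the members, the median *Arg1* level was 356 and 478 CPM without TNF and 237 and 643 CPM with TNF in mouse 1 and mouse 2. Cells with 1000 CPM or more numbered 5 and 15 without TNF and 9 and 18 with TNF. The level was thus higher in mouse 2 than in mouse 1 under both treatments, as a description. Plates of the same mouse also differed. Without TNF the median of the members was 208, 480, 299 and 1464 CPM on plates 2 to 5, so plate 4 of mouse 2 lay under plate 3 of mouse 1. With TNF it was 316, 177, 1729 and 590 CPM. Each plate held cells of 1 mouse, and the part of the plates in these levels was not tested.

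Few cells set the *Arg1* level of a whole culture. The counts summed over all kept cells gave 50.3 and 190 CPM of *Arg1* without TNF and 121 and 277 CPM with TNF in mouse 1 and mouse 2, 2.41-fold and 1.46-fold more with TNF. This was a log2 fold change of 0.83 (standard error 0.70), which did not pass the threshold (adjusted p = 0.879 by edgeR's quasi-likelihood fit, Benjamini-Hochberg adjusted). Its direction was opposite to that of the *Arg1* protein with TNF in the paper, which is a different measure. The highest cell alone, without TNF on plate 5, held 7.34% of the *Arg1* CPM of all kept cells and 24.4% of that of its mouse and treatment. With the mouse as a block the log2 fold change was 1.00 (standard error 0.19, adjusted p = 0.0531 by edgeR). Leaving out 1 sum moved it to 0.17 (IL4+IL13, mouse 1), 2.07 (IL4+IL13, mouse 2), 1.30 (TNF, mouse 1) or 0.13 (TNF, mouse 2), none past the threshold.

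The depth and quality of the *Arg1*-high cells were close to those of the other cells. Their median number of fragments was 442716 to 464602 by mouse and treatment, against 448244 to 492791 in the other cells, and their median mitochondrial share was 2.79% to 3.68%, against 2.76% to 3.79%. Cycling cells, those above the 90th percentile of an S phase or a G2 and M phase list, were unevenly distributed. They were 39.4% and 9.30% of the *Arg1*-high cells without TNF and 6.25% and 13.95% with TNF, against 28.3%, 11.7%, 17.5% and 5.77% of the other cells. *Retnla*, another classical gene of alternative activation, reached 100 CPM in 0 of 33 *Arg1*-high cells of mouse 1 without TNF, which allows a share of up to 9.09% (3 counts of the total, for counting error only), and in 13 of 43 (30.2%) of mouse 2. With TNF it did so in 1 *Arg1*-high cell of each mouse (3.12% and 2.33%). In the other cells the shares were 3.95% and 10.8% without TNF and 0.604% and 1.603% with TNF.

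The cells had the markers of macrophages. All 8 markers of the macrophage list, *Adgre1*, *Csf1r* and *Cd68* among them, were found in at least 5% of the *Arg1*-high cells, at a summed mean level of 13695 to 26166 CPM by mouse and treatment, against 15597 to 26255 CPM in the other cells, and the summed level was lower in the *Arg1*-high cells of all 4 pairs. Summed levels of the hepatocyte list, whose tissue is known for its own *Arg1*, were 0 to 0.174 CPM in the *Arg1*-high cells. The neutrophil list reached 5.18 CPM (3 of 7 markers at 0), the mast cell and basophil list 1.29 CPM (3 of 6 at 0), the eosinophil list 10.9 CPM (2 of 4 at 0) and the erythroid list 0.089 CPM. The B cell list reached 3.94 CPM, the stromal list 9.40 CPM, the endothelial list 14.8 CPM and the monocyte list 21.3 CPM. The megakaryocyte list (45.4 to 61.6 CPM in the *Arg1*-high cells, 34.9 to 71.0 CPM in the others) rested mainly on *Pf4* (found in 74.2% of the *Arg1*-high cells). The lymphocyte list (99.2 to 263 CPM, against 145 to 237 CPM) rested mainly on *Il7r* (90.1%). The osteoclast list was the one with a higher summed level in the *Arg1*-high cells of all 4 pairs of mouse and treatment, 63.9 to 189 CPM against 59.2 to 89.1 CPM, with *Calcr* at 0. Its genes did not share a direction. *Ctsk* was found in 49.7% of the *Arg1*-high cells and 43.8% of the others, and *Ocstamp* in 6.62% and 4.27%. *Acp5* was found in 19.2% and 20.5%, and *Mmp9* in 5.96% and 8.54%. In the summed cells of mouse 2 without TNF, *Ctsk* was at 40.9 CPM against 53.0 CPM. The summed level of the dendritic cell list was lower in the *Arg1*-high cells of 3 of the 4 pairs, with 6.60 to 16.2 CPM against 9.06 to 222 CPM. The part of the osteoclast and dendritic cell lists in the results below was not tested.

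The position on the plate moved with the share of other cells that had an *Arg1* fragment. *Arg1*-high cells lay in 60 of the 64 rows of wells, with at most 6 in a row. Of the other cells that shared a row or column with a cell of at least 3000 CPM, 35.3%, 59.3%, 55.4% and 65.7% had an *Arg1* fragment on plates 2 to 5, against 24.6%, 23.02%, 32.4% and 42.3% of those that did not. Their mean *Arg1* level was 3.29, 5.93, 3.74 and 4.87 CPM, against 5.19, 4.54, 4.87 and 5.85 CPM, and so was lower on 3 of the 4 plates and higher on plate 3. The part of this in the counts of cells with a few fragments was not tested.

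To see which other genes differed between *Arg1*-high cells and the rest, counts were summed per mouse, treatment and class, and both classes of the same mouse and treatment were compared as a pair. The sums hold 32 to 43 *Arg1*-high cells and 312 to 331 other cells each. Of 16566 genes other than *Arg1*, 0 (background share 0%) passed an adjusted p of 0.05 by edgeR's quasi-likelihood fit, Benjamini-Hochberg adjusted, and the lowest adjusted p was 0.443. An unadjusted p under 0.05 was found for 508 genes higher in *Arg1*-high cells (3.07% of the genes tested) and 666 lower (4.02%), and 1058 genes (6.39%) were higher and 1606 (9.69%) lower in all 4 pairs. DESeq2 called 149 genes higher and 129 lower, and edgeR on sums per plate, whose plates of the same mouse are not independent, called 5 and 9. The 20 genes described next were picked per direction, 10 higher and 10 lower, so these equal numbers come from the rule. In each direction they had the smallest unadjusted p among genes that lay on the same side in all 4 pairs. They were also detected in 25% or more of the higher class's cells. Their like direction in the 4 pairs is therefore part of how they were chosen, and values are given for them without a call. DESeq2 called all 20 of them.

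*Tmem26*, a transmembrane protein gene known as a surface marker of beige fat cells, had the largest difference of the 10 genes with the higher level. *Tmem26* was at 78.2 and 70.0 CPM in the *Arg1*-high cells of mouse 1 and mouse 2 without TNF and at 59.0 and 63.0 CPM with TNF, against 12.7, 16.5, 18.3 and 19.5 CPM in the other cells. The pairs did not overlap, and the log2 difference was 2.07 (standard error 0.20, adjusted p = 0.443 by edgeR). After thinning, a *Tmem26* fragment was found in 27.9% to 40.6% of the *Arg1*-high cells and in 13.7% to 19.3% of the others (39.1% and 21.04% over all cells without thinning). A single cell held 23.4% to 32.1% of the *Tmem26* CPM added over the *Arg1*-high cells of each mouse and treatment. The size of the difference thus rests in part on few cells. *Tmem26* lies at chr10:68723646-68782650 of mm10, on the plus strand.

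*Fcgr2b*, the inhibitory receptor for IgG, was at 487 and 865 CPM in *Arg1*-high cells without TNF and at 311 and 587 CPM with TNF, against 349, 512, 170 and 298 CPM (log2 difference 0.82, standard error 0.10). *Siglec1*, the sialic acid–binding lectin CD169 of tissue macrophages, was at 42.6, 68.2, 28.0 and 51.2 CPM in the same order, against 23.2, 30.9, 14.8 and 24.8 CPM. *Adam8*, a membrane metalloproteinase, was at 726, 825, 762 and 608 CPM, against 540, 457, 394 and 301 CPM. *Fcgr2b* and *Adam8* were each found in 100% of the *Arg1*-high cells, and in 99.5% and 98.8% of the others, and the log2 difference of *Adam8* was 0.86 (standard error 0.12). *Flt1*, a receptor of vascular endothelial growth factor, had a log2 difference of 0.78 (standard error 0.11).

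The other genes of the higher group encode a transporter and enzymes. *Slc7a2*, which encodes the arginine transporter CAT2, is described with the arginine genes. *Rnf145*, a ubiquitin ligase of the endoplasmic reticulum, had a log2 difference of 1.19 (standard error 0.16), *Lipn*, of the lipase family, 1.10 (standard error 0.15), *Dhrs9*, a retinol dehydrogenase, 1.08 (standard error 0.17), and *Ctsl*, the lysosomal protease cathepsin L, 0.56 (standard error 0.089). Their adjusted p lay between 0.466 and 0.552 by edgeR.

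Among the 10 genes with the lower level, *Saa3*, an acute-phase gene induced by inflammatory cytokines, had the largest difference. *Saa3* was near 0 without TNF in both classes (0.335 and 0.441 CPM in *Arg1*-high cells, 0.667 and 1.77 CPM in the others). With TNF it was at 31.4 and 40.8 CPM in *Arg1*-high cells and at 136 and 136 CPM in the others, a log2 difference over the 4 pairs of −1.78 (standard error 0.20, adjusted p = 0.443 by edgeR). A *Saa3* fragment was found in like shares of both classes with TNF, 34.4% and 39.5% of the *Arg1*-high cells and 40.2% and 44.9% of the others after thinning.

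*Fth1*, the heavy chain of the iron store ferritin, was at 32107 and 27375 CPM in *Arg1*-high cells without TNF and at 37115 and 30345 CPM with TNF, against 38675, 34098, 51273 and 46898 CPM (log2 difference −0.37, standard error 0.066). *Gm6977* went with it (−0.38), and 26.2% of the 25-base windows of its transcript in the GENCODE annotation are also in *Fth1* transcripts, so fragments of the 2 genes may be split between them. Genes of detoxification and redox metabolism were *Gstm1*, a glutathione transferase (−0.67), and *Fam213a*, a peroxiredoxin-like gene (−0.59). *Adk*, adenosine kinase (−0.68), *Ets2*, a transcription factor (−1.37), *Atxn10* (−0.57), *Fastk* (−0.89) and *Wdr20*, a partner of deubiquitinases (−1.40), completed the group, and the adjusted p of the 10 genes lay between 0.443 and 0.638 by edgeR.

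**Figure D2:**
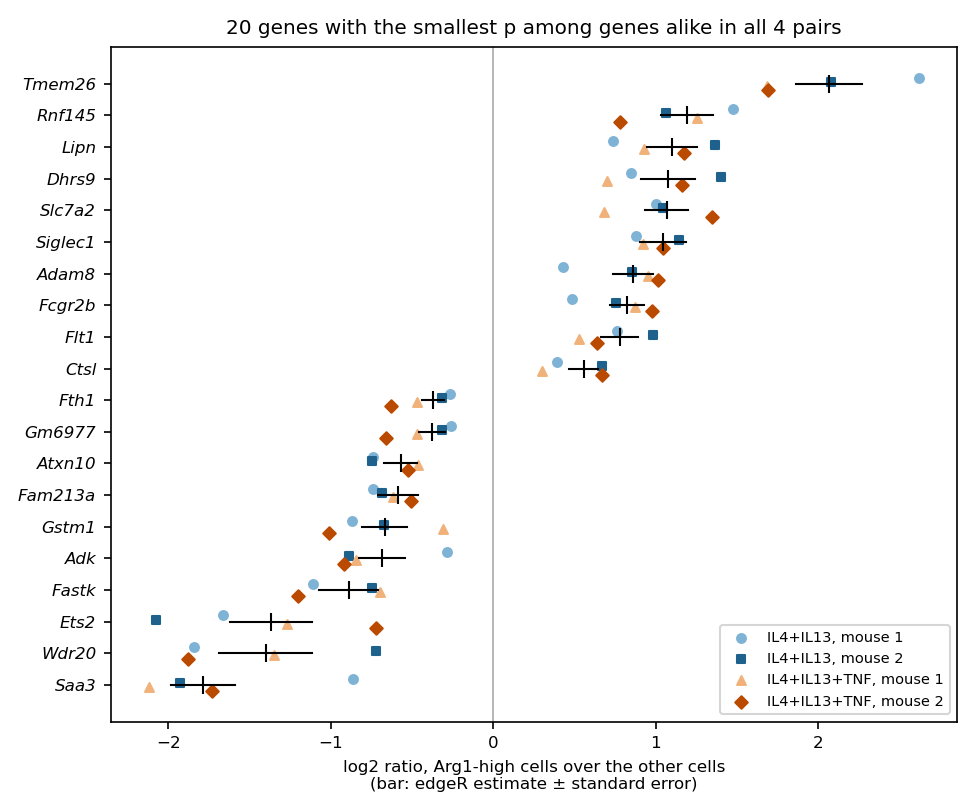
Log2 ratio of *Arg1*-high cells over the other cells (with 0.5 fragments added to each sum) in each of the 4 pairs of mouse and treatment, for the 20 genes with the smallest p among genes alike in all pairs; black bars are the edgeR estimate and its standard error. *Tmem26* lies between 1.69 and 2.62, and *Saa3*, at the other end, between −2.12 and −0.86.

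Arginine metabolism, the pathway of *Arg1* itself, had genes on both sides. Of 26 genes of the arginine and polyamine list, 22 were tested, 3 had an unadjusted p under 0.05 and a higher level and 2 a lower level, and the median log2 difference was −0.025, beside −0.038 over all 16566 genes. *Slc7a2*, which brings arginine into the cell, was at 43.9 and 91.7 CPM in *Arg1*-high cells without TNF and at 141 and 213 CPM with TNF, against 21.96, 44.5, 87.8 and 83.9 CPM (log2 difference 1.07, standard error 0.13, adjusted p = 0.466 by edgeR). *Slc7a1*, the related transporter CAT1, was at 21.6, 9.47, 14.5 and 8.87 CPM, against 28.3, 14.7, 34.3 and 35.9 CPM. *Slc7a1* was lower in all 4 pairs, but its adjusted p was 0.672 by edgeR and 0.0945 by DESeq2, so no direction is drawn for it.

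Enzymes that make or use arginine also lay on both sides. *Gatm*, which uses arginine for the first step of creatine synthesis, was at 326, 197, 151 and 155 CPM in *Arg1*-high cells, against 203, 168, 80.5 and 76.3 CPM (log2 difference 0.76, standard error 0.14). *Ass1*, which rebuilds arginine from citrulline, was at 1.94, 3.34, 27.02 and 24.4 CPM, against 10.4, 8.20, 50.9 and 55.8 CPM (−1.37, standard error 0.30). *Ass1* was lower in the *Arg1*-high cells of each pair and higher with TNF in both classes. *Oaz2*, an antizyme that restrains polyamine synthesis, had a log2 difference of 0.46 (standard error 0.16). Its adjusted p was 0.688 by edgeR and 0.124 by DESeq2, so no direction is drawn for *Oaz2* either.

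For the steps that follow arginase, the levels of both classes overlapped. *Odc1*, which turns ornithine into putrescine, was at 16.1, 11.2, 11.7 and 15.6 CPM, against 11.02, 9.41, 12.4 and 12.9 CPM (unadjusted p = 0.229 by edgeR). *Oat*, which turns ornithine towards proline, was at 233, 190, 183 and 171 CPM, against 260, 188, 222 and 181 CPM. *Arg2*, the mitochondrial arginase, was at most 5.52 CPM in either class (log2 difference −0.26, unadjusted p = 0.737). *Nos2*, *Otc*, *Cps1* and *Agmat* did not pass the filter on low counts and were not tested.

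The M2 “signature” genes *Retnla*, *Clec10a*, *Mgl2*, *Mrc1*, *Il10* and *Apoe* had higher fitted levels in *Arg1*-high cells for 6 of 6, with a median log2 difference of 0.55, and 2 of the 6 had an unadjusted p under 0.05. *Mgl2*, a C-type lectin, was at 1004 and 742 CPM in *Arg1*-high cells without TNF and at 542 and 838 CPM with TNF, against 791, 657, 355 and 450 CPM (log2 difference 0.56, standard error 0.12, unadjusted p = 0.00482 by edgeR). *Mrc1*, the mannose receptor, was at 1300, 1490, 855 and 1266 CPM, against 1226, 1250, 514 and 670 CPM (0.55, standard error 0.15, unadjusted p = 0.0131). For both lectin genes the distance between the classes was small without TNF and wider with TNF. DESeq2 called *Mgl2* (adjusted p = 0.0103) but not *Mrc1* (adjusted p = 0.0552).

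The remaining M2 genes varied more between pairs. *Clec10a*, a lectin related to *Mgl2*, was at 176 and 254 CPM in *Arg1*-high cells without TNF, under the 272 and 376 CPM of the other cells. With TNF it was at 115 and 257 CPM, above the 76.9 and 102 CPM of the other cells. *Apoe*, the apolipoprotein, was at 248, 520, 412 and 135 CPM, against 241, 310, 45.2 and 82.2 CPM. In mouse 1 with TNF, 1 cell held 80.0% of the *Apoe* CPM added over the *Arg1*-high cells. *Retnla* was at 1.88, 1446, 51.6 and 21.9 CPM, against 92.6, 398, 6.52 and 23.2 CPM, and *Il10* at 10.9, 13.4, 0.279 and 4.03 CPM, against 8.84, 2.62, 2.04 and 0.378 CPM, and neither gene had a steady direction over the pairs.

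The class comparison was also made within each treatment. Without TNF, 0 of 16566 genes (0%) passed the threshold by edgeR's quasi-likelihood fit, and 309 (1.87%) were higher and 528 (3.19%) lower at an unadjusted p under 0.05. With TNF, 0 (0%) passed, and 462 (2.79%) were higher and 601 (3.63%) lower. DESeq2 was not run for either comparison on its own. For the M2 list, 4 of 6 genes had an unadjusted p under 0.05 and a higher level in *Arg1*-high cells with TNF (*Clec10a* 1.00, *Mgl2* 0.80, *Mrc1* 0.87 and *Apoe* 2.00 on the log2 scale), and 1 of 6, *Mgl2* with 0.31, did so without TNF.

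Whether the difference between the classes itself depended on TNF was tested by the interaction term. By edgeR 0 of 16566 genes (0%) passed the threshold, with 374 (2.26%) and 419 (2.53%) at an unadjusted p under 0.05 in each direction, and DESeq2 called 25 and 24. Of the M2 genes, *Clec10a* had an interaction of 1.54 on the log2 scale (standard error 0.30, unadjusted p = 0.00437), *Mrc1* 0.65 (standard error 0.15, unadjusted p = 0.0102) and *Mgl2* 0.48 (standard error 0.16, unadjusted p = 0.0287), each with an adjusted p of 1 by edgeR. The 5 genes with the smallest p of the interaction were *Mmp8*, *Aldh1a2*, *Clu*, *Gm38042* and *Zfp719*, with unadjusted p from 0.000213 to 0.00115 and an adjusted p of 1 by edgeR, and all 5 were called by DESeq2 (adjusted p from 4.11e-09 to 0.000185). They were found in few cells. *Mmp8*, a neutrophil collagenase, was at 8.38 and 14.6 CPM in *Arg1*-high cells without TNF and at 0.14 and 0.096 CPM with TNF, against 5.81, 9.10, 11.8 and 8.76 CPM in the other cells. In each mouse and treatment, 1 cell held 45.8% to 77.1% of the *Mmp8* CPM added over the *Arg1*-high cells. *Aldh1a2*, a retinaldehyde dehydrogenase, reached 233 CPM in the other cells of mouse 2 with TNF, the sum in which the dendritic cell list reached its 222 CPM, and the part of that list in this value was not tested.

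**Figure D3:**
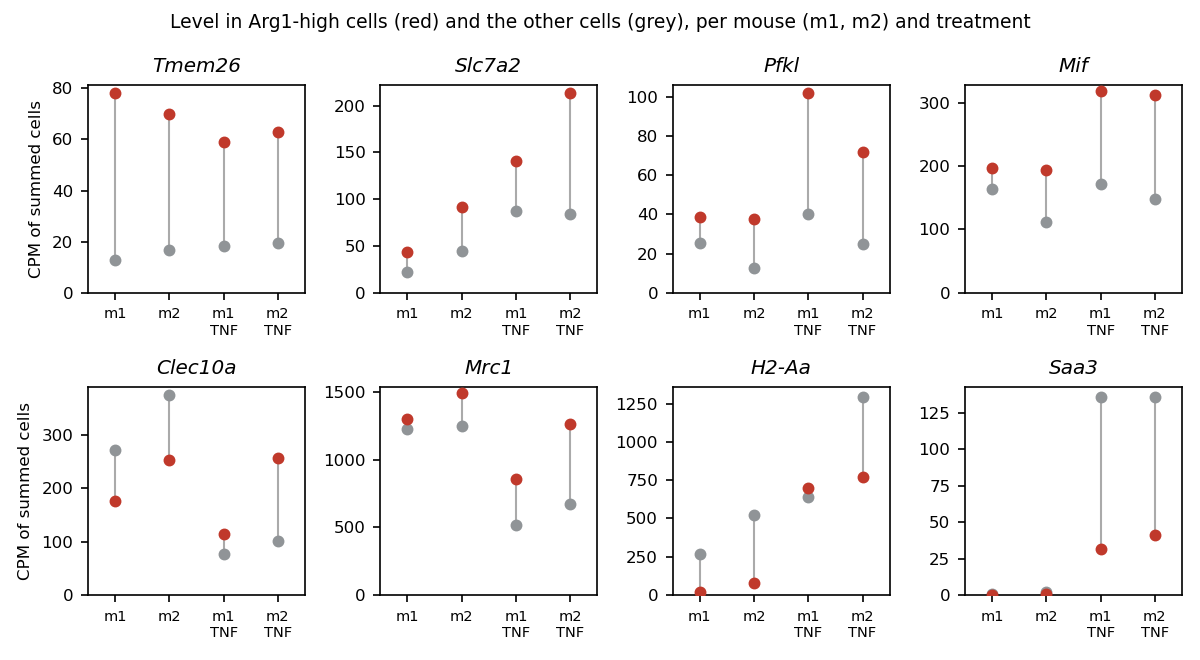
CPM of 8 genes in the summed *Arg1*-high cells (red) and the other cells (grey) of mouse 1 (m1) and mouse 2 (m2), without and with TNF, on axes that start at 0. Red lies above grey in all 4 pairs for *Tmem26*, *Slc7a2*, *Pfkl*, *Mif* and *Mrc1*, and for *Clec10a* red lies below grey without TNF (176 against 272 CPM in m1) and above it with TNF (115 against 76.9 CPM).

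Glycolysis and hypoxia genes had the largest share of the 16 lists at an unadjusted p under 0.05. Of 24 genes, 20 were tested, and 14 were at an unadjusted p under 0.05 and a higher level in *Arg1*-high cells, against a background of 3.07%, and 0 at a lower level. Their median log2 difference was 0.62, and over the 4 pairs the median was −0.036 and 0.69 without TNF and 0.69 and 0.80 with TNF, so mouse 1 without TNF stood apart from the other pairs. DESeq2 called 9 of the 20. *Pfkl* and *Pkm* are named because they were among the 10 genes with the highest correlation with *Arg1* over cells, and the other genes of the lists in this and the next paragraphs were chosen after their values were seen.

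*Pfkl*, the liver form of phosphofructokinase, which commits sugar to glycolysis, was at 38.6 and 37.5 CPM in *Arg1*-high cells without TNF and at 102 and 71.9 CPM with TNF, against 25.7, 12.7, 40.2 and 24.9 CPM (log2 difference 1.31, standard error 0.21, adjusted p = 0.552 by edgeR). *Pkm*, pyruvate kinase, was at 1178, 1098, 1326 and 1343 CPM, against 1018, 855, 1018 and 895 CPM (0.43, standard error 0.079). *Tpi1* (0.86), *Eno1* (0.67) and *Ldha* (0.63), which encode later steps of the pathway, and *Slc16a3* (1.14), a lactate exporter, lay on the same side in all 4 pairs. *Ankrd37* (1.58) and *Bnip3* (1.23), known targets of hypoxia, were at 16.96 and 20.1 CPM in the *Arg1*-high cells of mouse 1 without TNF, under the 18.8 and 21.9 CPM of the other cells, and above them in the other 3 pairs. Other genes of the list had values near 0. *Slc2a1*, the glucose importer, had a log2 difference of 0.10 (unadjusted p = 0.644) and *Hk1*, hexokinase, −0.089 (unadjusted p = 0.608).

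Within treatments, 4 glycolysis and hypoxia genes were higher and 1, *Ndrg1*, was lower at an unadjusted p under 0.05 without TNF (median 0.41), and 13 were higher with TNF (median 0.83). The interaction was past an unadjusted p of 0.05 for 2 of the 20, *Slc16a3* (1.00, unadjusted p = 0.0288 by edgeR) and *Ndrg1* (0.96, unadjusted p = 0.0293). *Hif1a*, the factor through which hypoxia acts, was at 76.4, 78.6, 100 and 109 CPM in *Arg1*-high cells, against 92.8, 111, 107 and 116 CPM.

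Genes of resident-like macrophages and chemokines were the next lists. Of 8 genes of the C1q-high macrophage list, 5 were at an unadjusted p under 0.05 and a higher level (median log2 difference 0.64). The background over all genes tested was 3.07%. Over the pairs the median was −0.10 and 0.71 without TNF and 0.50 and 1.28 with TNF in mouse 1 and mouse 2. Of the 8 genes, 3 were higher in all 4 pairs, *Folr2* and *C1qb* among them. *Folr2*, a folate receptor, was at 44.3, 33.9, 45.2 and 34.8 CPM, against 29.6, 13.03, 14.3 and 11.03 CPM, a log2 difference of 1.37 (standard error 0.24), and *C1qb*, of the complement starter C1q, had 0.51. All 8 CC chemokine genes had a higher fitted level (median 0.42) and 4 an unadjusted p under 0.05, beside the same background. Of these *Ccl12* was at 60.9 and 46.2 CPM without TNF and 260 and 316 CPM with TNF, against 43.9, 27.8, 112 and 119 CPM, and *Ccl8* had a log2 difference of 1.45 (standard error 0.44) with 34.1 CPM against 39.1 CPM in mouse 1 without TNF.

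Antigen presentation genes lay on the lower side, mainly without TNF. All 7 MHC class II genes had a lower fitted level over the 4 pairs (median −0.45), 1 of them, *H2-DMa*, at an unadjusted p under 0.05. Without TNF, 5 of the 7 were lower at an unadjusted p under 0.05, against a background of 3.19%, and with TNF 0 of the 7 were. *H2-Aa*, the alpha chain of the I-A molecule, was at 18.7 and 79.7 CPM in *Arg1*-high cells without TNF, against 267 and 522 CPM, and at 697 and 772 CPM with TNF, against 638 and 1297 CPM. The difference was −3.20 on the log2 scale (standard error 0.40) without TNF and −0.27 (standard error 0.36) with TNF, and the interaction of 2.93 (standard error 0.53) had an unadjusted p of 0.00335 and an adjusted p of 1 by edgeR. A single cell held 37.8% and 23.9% of the *H2-Aa* CPM added over the *Arg1*-high cells of mouse 1 and mouse 2 without TNF. The median *Arg1*-high cell had 1.91 and 24.2 CPM of *H2-Aa* without TNF and the median other cell 2.33 and 22.6 CPM, so the medians lay close while the sums lay apart.

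Inflammatory and interferon genes had lower medians. Of 22 genes of the TNF and NF-κB list, 21 were tested, and 5 were lower at an unadjusted p under 0.05, *Saa3*, *Icam1* (log2 difference −0.61), *Tnfaip2* (−0.24), *Cxcl10* and *Ptgs2*, and 0 higher (median −0.24). *Icam1*, an adhesion molecule, was at 14.9, 17.3, 64.0 and 59.5 CPM, against 17.2, 26.8, 129 and 102 CPM. *Cxcl10* and *Ptgs2* were found in 7.28% of the *Arg1*-high cells each, and their sums rest on few cells. Of 10 type I interferon genes, 9 had a lower fitted level (median −0.89) and 0 an unadjusted p under 0.05. The transcription regulators of *Arg1* (19 genes) had a median of 0.13, with *Maf* (0.70) higher at an unadjusted p under 0.05, and the list from the IL4 and IL13 receptors to STAT6 (9 genes, 8 tested) had 1 higher, *Irs2* (1.11), with a median of −0.063. *Stat6* itself was at 110, 114, 192 and 130 CPM, against 153, 168, 146 and 145 CPM (unadjusted p = 0.421 by edgeR).

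**Figure D4:**
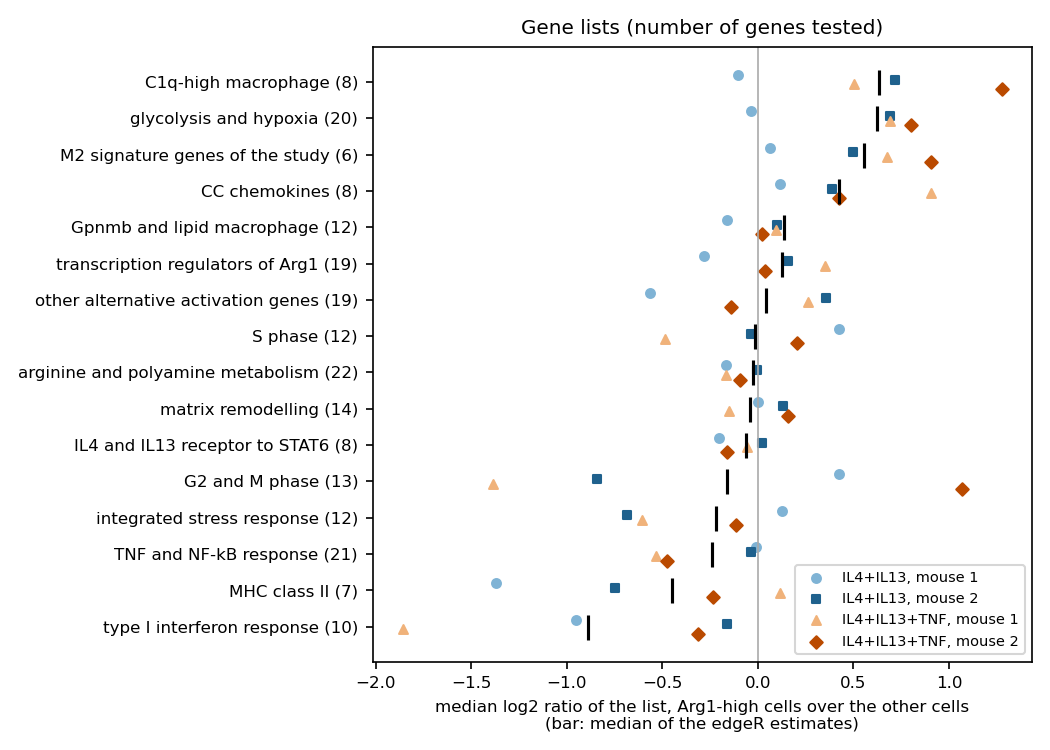
Median log2 ratio of *Arg1*-high cells over the other cells for each of 16 gene lists in the 4 pairs of mouse and treatment (points), with the median of the edgeR estimates as a bar; the number of genes tested stands in brackets. The glycolysis and hypoxia median is −0.036 in mouse 1 without TNF and between 0.69 and 0.80 in the other pairs, and the MHC class II median is −1.37 and −0.75 without TNF and 0.12 and −0.23 with TNF.

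The level of *Arg1* was followed over 6 bands of cells, from 774 cells at 0 to 47 cells at 1000 CPM or more, as means over the mice and treatments. The smallest set of 1 mouse and treatment in the highest band was 5 cells, so single cells weigh much there. The single genes shown were picked above because they differed between the classes in these same cells, and the bands from 100 CPM up are the members. A difference between low and high bands is thus built into their choice. *Tmem26* had a mean of 12.9 CPM at 0, 20.7 CPM above 0 and under 20 CPM of *Arg1*, and then 35.7, 31.6, 66.4 and 119 CPM. Its mouse and treatment means ran from 0.126 to 47.9 CPM in the band from 100 CPM and from 1.07 to 104 CPM in that from 300 CPM. *Fcgr2b* went from 331 and 328 CPM over 490, 438 and 530 CPM to 768 CPM, and *Siglec1* from 23.9 CPM in the lowest to 81.2 CPM in the highest band. The summed glycolysis and hypoxia list was at 3402 and 3408 CPM in the 2 lowest bands and at 5870 and 5612 CPM in the 2 highest. *Fth1* was at 42705 CPM in cells without *Arg1* and at 26691 CPM in the highest band, and *Wdr20* at 23.6 and 7.67 CPM. Other measures did not follow the bands in this way. In the band just under the threshold, from 20 to under 100 CPM of *Arg1*, *Saa3* (71.5 CPM), *Adk* (95.6 CPM) and *Fam213a* (57.7 CPM) had their highest mean of the 6 bands, and the summed MHC class II list (1065 CPM) its lowest.

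**Figure D5:**
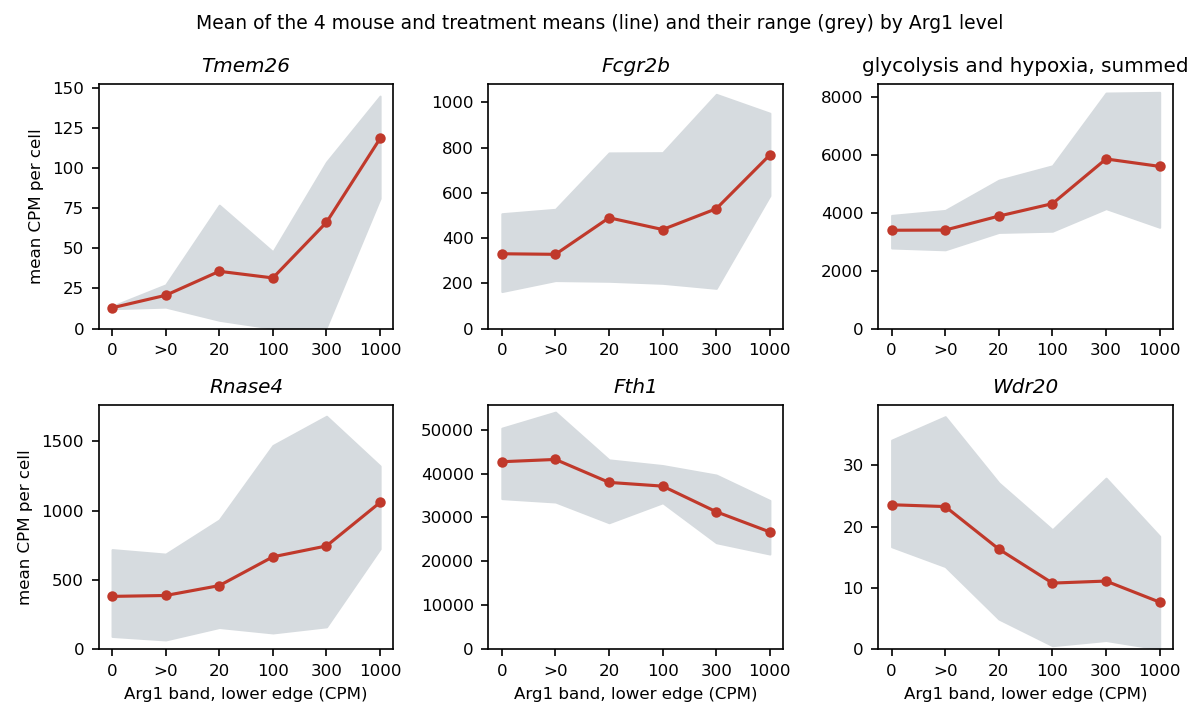
Mean level of 5 genes and of the summed glycolysis and hypoxia list in 6 bands of cells, labelled by the lower edge of their *Arg1* CPM; the line is the mean of the 4 mouse and treatment means and the grey area spans their lowest and highest. *Tmem26* goes from 12.9 to 119 CPM and *Fth1* from 42705 to 26691 CPM, while the grey areas of *Fcgr2b* overlap in the first 5 bands. The *Fcgr2b* area of the highest band (588 to 952 CPM) also overlaps those of the bands from 20 to under 1000 CPM of *Arg1*.

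Across single cells no gene followed *Arg1* closely. The Spearman correlation with *Arg1* was taken over the kept cells of each plate and treatment and averaged over the 8 sets for 10631 genes found in at least 25% of the cells; these cells share plates and depths, so the values are a description without a p. The mean correlation was 0.004 for the median gene and −0.068 and 0.093 at the 1st and 99th percentile. *Mif*, a macrophage cytokine, came highest with 0.197 (0.092 to 0.264 over the 8 sets), followed by *C230062I16Rik* (0.186), *Mif-ps3* (0.180), *Pfkl* (0.179), *Gm16379* (0.171), *Lipn* (0.170), *Adam8* (0.163), *Rnase4* (0.160), *Ccl7* (0.158) and *Pkm* (0.158). 3 of these are not independent of *Mif*: of the 25-base windows of their GENCODE transcripts, 60.5% for *Gm16379*, 29.9% for *Mif-ps3* and 11.3% for *C230062I16Rik* are also in *Mif* transcripts, and their counts are uncertain. *Mif* was at 198 and 195 CPM in *Arg1*-high cells without TNF and at 319 and 313 CPM with TNF, against 164, 112, 171 and 149 CPM (log2 difference 0.81, standard error 0.15).

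*Rnase4*, a secreted ribonuclease, was at 901, 1342, 289 and 769 CPM in *Arg1*-high cells, against 598, 697, 86.8 and 177 CPM, a log2 difference of 1.40 (standard error 0.27). *Ang*, the ribonuclease gene known as its neighbour and chosen after its values were seen, was at 61.3, 109, 20.6 and 66.3 CPM, against 47.9, 63.1, 8.37 and 15.3 CPM. Both were lower with TNF than without in either class. At the other end *Fth1* came lowest (−0.147), with *Gm6977* (−0.145), *Prdx1*, a peroxiredoxin (−0.123), *Fth-ps3* (−0.122) and *Gm21399* (−0.118). *Gm21399* shares 61.4% of its 25-base windows with *Prdx1* and *Fth-ps3* shares 8.38% with *Fth1*, so these 5 stand for 2 families.

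The difference with TNF within *Arg1*-high cells was read from 4 sums of 32 to 43 cells. Members were set by *Arg1* after the treatment, so those with and without TNF need not be like cells. The part of this in the values below was not tested. Of 14352 genes, 0 (0%) passed the threshold by edgeR's quasi-likelihood fit, with 347 (2.42%) higher and 302 (2.1%) lower with TNF at an unadjusted p under 0.05. With the mouse as a block 0 (0%) passed, with 447 (3.11%) and 435 (3.03%), and DESeq2 called 67 higher and 42 lower. In the other cells 1 of 16567 genes passed (0.00604%), *Clec4e*, with 629 (3.8%) and 790 (4.77%) at an unadjusted p under 0.05. With the block it was 714 genes (4.31%), with 1612 (9.73%) and 1961 (11.8%) at an unadjusted p under 0.05. The sums of the other cells hold more cells, so the counts of calls cannot be compared between the classes, and the interaction above is the test of a difference.

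Inflammatory genes had higher values with TNF in both classes, without a gene past the threshold in *Arg1*-high cells. Of the TNF and NF-κB list, 10 of 18 tested genes had an unadjusted p under 0.05 and a higher level with TNF in *Arg1*-high cells (median log2 fold change 1.74), and 16 of 21 did in the other cells (median 2.33), where 16 of the list passed the threshold with the block. *Saa3* had a log2 fold change with TNF of 6.59 in *Arg1*-high cells and 6.90 in the others, and *Nfkbia*, the inhibitor of NF-κB, 1.93 and 1.97. *Clec4e*, the lectin Mincle, was at 10.4 and 45.7 CPM without and 210 and 245 CPM with TNF in *Arg1*-high cells (3.08, unadjusted p = 0.00977 by edgeR), and at 20.2, 17.9, 698 and 755 CPM in the other cells (5.34, adjusted p = 0.0163 by edgeR). The smallest p in *Arg1*-high cells belonged to *H2-M2* (7.58, against 7.44 in the other cells) and *Nfkbie* (4.61, against 2.96), both chosen after their values were seen.

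Of the 22 tested arginine and polyamine genes, the median log2 fold change with TNF was −0.033 in *Arg1*-high cells and 0.22 in the others. *Slc7a2* had a log2 fold change of 1.46 in *Arg1*-high cells and 1.47 in the others, *Ass1* 3.36 and 2.61, and *Gatm* −0.66 and −1.15. For the M2 genes the values were further apart. The median log2 fold change of the 6 M2 genes was −0.35 in *Arg1*-high cells, where 0 of 6 had an unadjusted p under 0.05, and −1.89 in the other cells, where 5 of 6 were lower at an unadjusted p under 0.05 and 5 of the list passed the threshold with the block. *Clec10a* had −0.13 (standard error 0.46) in *Arg1*-high cells and −1.76 (standard error 0.24) in the others, *Mrc1* −0.31 (standard error 0.27) and −0.97 (standard error 0.17), and *Mgl2* −0.24 (standard error 0.29) and −0.76 (standard error 0.19). The difference between the classes was tested by the interactions given above, in the fit of all 8 sums, which did not pass the threshold after adjustment. Of the glycolysis and hypoxia list, 7 of 20 genes were higher with TNF at an unadjusted p under 0.05 in *Arg1*-high cells (median 0.87) and 2 of 20 in the other cells (median 0.33), and with the block it was 10 of 20 in either class.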

How the data were processed

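Per the paper and the submitters' processing notes, the authors aligned fragments to mm10 with gsnap and counted uniquely mapped fragments on Ensembl 98 genes with featureCounts 1.6.3; its strand setting is not given in the sources used here, and overlapping genes may not be told apart. The deposited values are raw counts per gene and well, 55421 genes and 92 spike-ins, which were left out of totals. 55154 gene identifiers matched a symbol. 11 columns and 4 samples of no known mouse were not used. No doublet caller was run on these sorted wells.

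Counts were summed per mouse, treatment and class, since the mouse is the replicate; 2 mice measure only the spread between these animals. Genes found in at least 5% of kept cells that pass filterByExpr were tested with edgeR 4.0.16 (glmQLFit, glmQLFTest, TMM, Benjamini-Hochberg, threshold 0.05) in R 4.3.3, with mouse and treatment as a block for the classes and treatment alone for TNF, as the study names no block. CPM of sums is untransformed. Alternatives were DESeq2 1.42.0, limma 3.58.1 on log2(CPM + 1), other thresholds, filters, scalings and sums, and each sum left out; where this leaves 1 sum in a group, it is assumed to vary like the others. The fits were tested on simulated counts. The mouse numbers pair the samples: cells of both treatments come from the same animal and plates, and departures from the mean of each treatment had r = 0.595 over 16568 genes in all kept cells and 0.147 over 14353 genes in *Arg1*-high cells.

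Results for some genes of the lists are not reported here. Members, lists and the rule for named genes were chosen with earlier results of these data known. Named were *Arg1*, the arginine and M2 lists, the genes past the threshold (filled up to 10 per direction with the smallest p among genes alike in 4 pairs and found in 25% of cells), the 5 smallest p of the interaction, and the 10 highest and 5 lowest correlations with *Arg1*.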

Additional observations from a re-analysis of the deposited data

Results flagged for a closer look

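The mean *Arg1* level over the kept cells of a plate and treatment lay apart on plate 5 with IL4+IL13. It was 300.3 CPM there, against 40.0, 68.2 and 77.4 CPM on the other 3 plates with IL4+IL13, a gap above Dixon's critical value for 4 values. A single cell of 16247 CPM held 31.1% of that plate's *Arg1*, and 12 of its 22 *Arg1*-high cells had 1000 CPM or more, against 1, 4 and 3 on the other plates. The share of *Arg1*-high cells did not stand apart, with 12.6% on plate 5 and 8.84%, 9.39% and 11.4% on the others. Of 10 sets of 4 plate values compared in this way, this was the only one past the critical value, and chance gives about 1 in 20.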

How the results depend on the processing

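Every named difference between *Arg1*-high and other cells that was recomputed kept its direction under the alternatives run for it. All of these genes lay on the same side in all 4 pairs, so leaving out a sum could hardly turn them. Genes with mixed pairs, such as *Clec10a* and *Retnla*, were not part of this check. The 5 named interactions had 1 alternative, DESeq2, and kept their direction under it. The share of *Arg1*-high cells with TNF minus without was 0.479 percentage points with a threshold of 50 CPM, −0.918 with 200 CPM, 0.306 with the filter per plate, 0.027 with no cell filter and, without replicate 1 or 2, between −0.301 and 0.135, so its sign is not determined. Against 0 calls by edgeR, sums per plate gave 5 genes higher and 9 lower in *Arg1*-high cells and DESeq2 149 and 129, and 25 and 24 for the interaction; within *Arg1*-high cells, TNF had 67 higher and 42 lower with DESeq2 and 100 and 81 with no gene filter. The replicate block of the mouse moved the TNF calls in the other cells to 352 higher and 362 lower and changed no call in the *Arg1*-high cells or of *Arg1* itself, whose leave-one-out values lay between 0.13 and 2.07. Without cells of 100 CPM of *Retnla* or more, an alternative chosen after seeing the data, 0 genes were called by edgeR, with 472 higher and 647 lower at an unadjusted p under 0.05.

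List medians that moved were the arginine list (−0.18 at 200 CPM, −0.14 with sums per plate, −0.23 with no gene filter, and −0.14 to 0.042 with a sum left out), the M2 list (0.42 to 1.13 with a sum left out), the receptor to STAT6 list (−0.24 with no gene filter), the *Gpnmb* and lipid list (−0.0052 with no gene filter, −0.029 to 0.22 with a sum left out) and matrix remodelling (−0.46 at 200 CPM, −0.20 thinned, −0.77 with sums per plate, −0.18 with no gene filter, 0.17 with no replicate block, −0.36 to 0.086 with a sum left out). With 32 to 43 *Arg1*-high cells per sum, genes found in few cells can follow single cells.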

Other observations

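The lists that the text has not yet described are given with genes at an unadjusted p under 0.05 by edgeR, none past its threshold after adjustment, beside shares of 3.07% higher and 4.02% lower over all genes tested. The genes named from them were chosen after their values were seen. Of 19 tested genes of alternative activation outside the M2 “signature”, 1 was higher at an unadjusted p under 0.05, *Flt1*, and the median log2 difference was 0.040. Of 12 genes of the *Gpnmb* and lipid macrophage list, *Cd36*, a fatty acid receptor (0.36), and *Plin2*, a lipid droplet coat protein (0.30), were higher and *Spp1*, osteopontin, was lower (−0.34). *Cd36* was at 1194, 541, 1355 and 711 CPM in *Arg1*-high cells, against 985, 458, 1066 and 549 CPM. Among matrix remodelling genes, *Adam8*, *Tgfbi* (0.44) and *Timp2* (0.44) were higher and *Plaur* (−0.73) was lower. Among 12 tested genes of the integrated stress response, *Phgdh*, the first enzyme of serine synthesis (−1.06), was lower in all 4 pairs. *Asns*, asparagine synthetase (−0.58), was at 155 CPM against 132 CPM in mouse 1 without TNF and lower in the other 3 pairs.

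Among S phase genes *Pcna* was higher at an unadjusted p under 0.05, and of 13 G2 and M phase genes 1, *Cenpa*, was higher. The median of the G2 and M phase list was 0.42 and −0.84 without TNF and −1.38 and 1.07 with TNF in mouse 1 and mouse 2, so the pairs went opposite ways, as did the shares of cycling cells.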
